A study of Mus musculus with 6 samples.

Results

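Inflammatory and regulatory cytokines were examined in mouse bone marrow-derived dendritic cell cultures by mRNA sequencing. The set holds 10 genes of the 57132 in the count table, taken by symbol through their Ensembl identifiers: Il1a, Il1b, Il1rn, Il6, Il10, Il18, Tnf, Tgfb1, Osm and Mif. The 100Q group had medium with 100 nM queuine and the 0Q group medium without it, with 3 libraries in each. All cultures came from marrow of female C57BL/6 mice aged 6 to 8 weeks and had dialyzed serum and the growth factor GM-CSF at 15 ng/mL. They were fed on days 2 and 4 and harvested on day 5, with no added stimulus named in the labels. Queuine is a base taken up from the diet and the gut flora that cells exchange into the anticodon of certain tRNAs, those of Asn, Asp, His and Tyr, to form queuosine. Wells were plated in triplicate, and whether each well had its own animal is not stated. The p-values thus reflect the spread among these libraries, which may be technical.

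These cytokines start, shape and end inflammation. IL-1 alpha and IL-1 beta act on 1 receptor, and the product of Il1rn occupies that receptor without signalling. TNF, IL-6 and oncostatin M are made rapidly by myeloid cells after microbial signals, whereas IL-10 and TGF-beta1 restrain inflammation. IL-1 beta and IL-18 are made as precursors that caspase-1 cuts, and MIF is stored in cells in the resting state. Many cytokine mRNAs carry AU-rich elements in the 3′ UTR, to which proteins bind that shorten the life of the mRNA.

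The cultures held Mif and Il1rn mRNA at high levels, and Tnf, Il18, Il1b and Il1a at intermediate levels. Il6, Osm and Tgfb1 lay below the median of all tested genes. Il10 had 0 counts in all 6 libraries. None of the 9 cytokine mRNAs that could be tested passed the test of 100Q against 0Q (edgeR's quasi-likelihood test), and the libraries of the groups overlapped for all 9. The intervals were narrow for Mif and Il1rn and wide for Il6, Osm and Tgfb1.

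Total counts were 4484785 to 19386533 in 100Q and 3675918 to 6755367 in 0Q, and 10554 genes passed the filter on low counts. Values below are CPM, counts scaled to the library total with TMM factors, and levels of different genes are compared as CPM per kilobase of the GENCODE canonical transcript. The labelled cell type was checked against 12 dendritic cell markers, which were all detected. H2-Aa, a chain of MHC class II, was the most abundant of them, with 580.3 CPM in the 100Q libraries, against 577 CPM in 0Q on average. The dendritic cell markers lay in the opposite direction to the granulocyte markers, with 10 of 12 estimates above 0 (median 0.26, and 7 to 10 of 12 with 1 library left out), and 2 of them had every 100Q library above every 0Q library, against 4.42% of all tested genes. The smallest p was that of Itgax, the integrin chain CD11c, with a log2 fold change of 0.51 (unadjusted p = 0.0174 and adjusted p = 0.999 by edgeR), and none passed the test. Flt3 and Zbtb46, which mark conventional dendritic cells, averaged only 3.33 and 2.46 CPM in the 100Q libraries, against 1.12 and 1.17 CPM in the 0Q libraries. Markers of monocytes and macrophages (led by Lyz2), granulocytes (S100a9), and mast cells and basophils (Mcpt8) were all present. The 10 granulocyte markers summed to 14162 to 17231 CPM in 100Q and 16976 to 19887 CPM in the 0Q libraries, and the estimates of all 10 were below 0, or of 9 without 0Q replicate 1 or 0Q replicate 2. Over all tested genes 50% of estimates lay below 0. Of the 10 granulocyte markers, 3 had an unadjusted p under 0.05 by edgeR, where 2.93% of all tested genes did, and 3 had every 0Q library above every 100Q library, where 3.86% of all tested genes did. None of the 10 passed the test. Of the lymphocyte markers, 4 of 8 had fewer than 10 counts over all libraries, with Cd3e at 0. The part of these cell types in the cytokine levels was not tested.

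Codons read by queuosine tRNAs are shown because the treatment supplies queuine, and AU-rich pentamers because they are a known feature of cytokine mRNAs. Codons for Asn, Asp, His and Tyr end in U or C. Among the 10 genes, Mif had the lowest share of these codons ending in U, with 4 of 22 (18.2%), and Il6 the highest, with 22 of 37 (59.5%). The median over 19534 protein-coding genes with at least 20 such codons was 43.0%. By rank, with tied genes counted in part, 2.34% of these genes lay below Mif and 87.8% below Il6. Their first 100 codons, written as DNA with these 4 amino acids' codons in capitals, are as follows, 5′ to 3′ on the coding strand, from the canonical GENCODE M39 transcripts on GRCm39.
Mif: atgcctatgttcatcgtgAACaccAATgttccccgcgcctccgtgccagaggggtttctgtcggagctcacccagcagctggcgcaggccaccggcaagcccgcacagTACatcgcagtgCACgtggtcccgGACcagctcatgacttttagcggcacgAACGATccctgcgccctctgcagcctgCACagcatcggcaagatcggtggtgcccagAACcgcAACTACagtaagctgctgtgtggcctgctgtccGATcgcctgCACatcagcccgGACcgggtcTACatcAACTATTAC
Il6: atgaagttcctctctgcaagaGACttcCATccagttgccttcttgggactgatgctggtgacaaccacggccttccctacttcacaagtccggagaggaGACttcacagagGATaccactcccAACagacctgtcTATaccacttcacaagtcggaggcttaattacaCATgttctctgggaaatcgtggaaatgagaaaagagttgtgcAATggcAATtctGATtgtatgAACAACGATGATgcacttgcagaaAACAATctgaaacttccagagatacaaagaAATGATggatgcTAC
In these windows Mif had 4 such codons ending in T and 14 ending in C, whereas Il6 had 12 and 7. Tnf and Tgfb1 each had 22.6% ending in U over the whole coding sequence, Il1rn had 28.6%, Il1b 32.6%, Il1a 42.0% and Il18 50.0%. Neither Mif nor Il6 mRNA passed the test between the groups, as given below, and translation was not measured by these libraries.

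The pentamer ATTTA, searched in the sense strand of the 3′ UTR with overlaps counted, occurred 8 times in Tnf, 6 times each in Il6, Il10 and Osm, 5 times in Il1a and 4 times in Il1b. It occurred once each in Il18 and Tgfb1 and 0 times in Il1rn and Mif. Of 20858 protein-coding genes with a 3′ UTR, 38.6% held it at least 3 times. The longer nonamers TTATTTAAA, TTATTTAAT, TTATTTATA and TTATTTATT occurred 5 times in Tnf and once in Il10, and not in the other 8, against at least 1 in 17.3% of genes. The 30 bases richest in ATTTA are given for Tnf, Il1b and Il6 from the same transcripts, with the pentamers in capitals, as cases with many and few repeats.
Tnf: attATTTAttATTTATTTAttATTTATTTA
Il1b: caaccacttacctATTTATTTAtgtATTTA
Il6: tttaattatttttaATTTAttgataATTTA
The window holds 5 pentamers in Tnf, 3 in Il1b and 2 in Il6. The most abundant members, Mif and Il1rn, were the ones without the pentamer. However, Tnf, next by level, had the most, and Tgfb1, the lowest detected, had 1. The counts were not scaled to the length of the 3′ UTR, which was 124 bases in Mif, 138 in Tgfb1, 1864 in Il1rn and 2340 in Il1a. A match is a description of the letters only, and decay of the mRNAs was not measured.

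**Figure D1:**
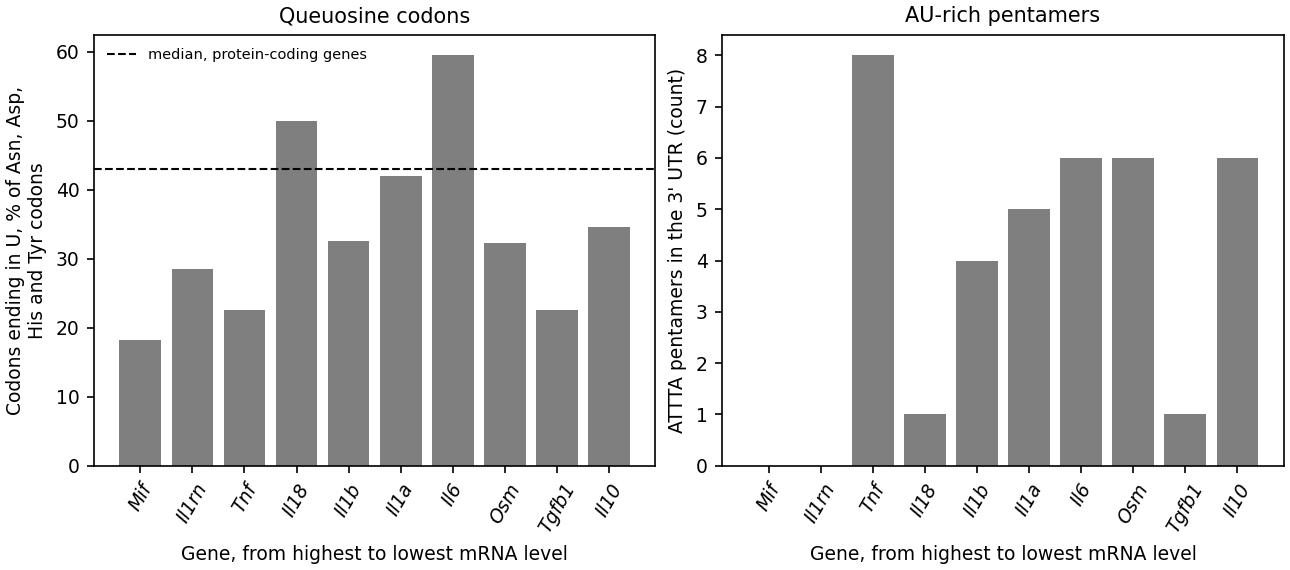
Left, share of Asn, Asp, His and Tyr codons that end in U (percent) in each gene, with the median of 43.0% over protein-coding genes as a dashed line. Right, number of ATTTA pentamers in the 3′ UTR, not scaled to its length. Genes run from highest to lowest mRNA level. The 2 highest, Mif and Il1rn, have 0, and Tnf, next by level, has the most, 8.

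Per kilobase, the order of mean levels over the 6 libraries was Mif (476 CPM per kilobase), Il1rn (225), Tnf (21.8), Il18 (19.2), Il1b (8.79), Il1a (7.80), Il6 (3.56), Osm (2.44) and Tgfb1 (2.11). Mif lay above Il1rn, Il1rn above Tnf, and Il18 above Il1b in every pair of libraries. The library ranges of Tnf and Il18 overlapped, as did those of Il1b and Il1a and of each neighbouring pair among Il1a, Il6, Osm and Tgfb1. The median of all tested genes was 4.49 CPM per kilobase. Of these genes, 97.3% lay below Mif, 95.4% below Il1rn, 65.4% below Il1b, 62.7% below Il1a and 30.2% below Tgfb1. Mif and Il1rn together made up 91.1% to 92.3% of the summed level of the 10 genes in the 100Q libraries and 90.9% to 91.4% in the 0Q libraries. These levels rest on 1 transcript length per gene, which would be wrong where another isoform prevails.

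**Figure D2:**
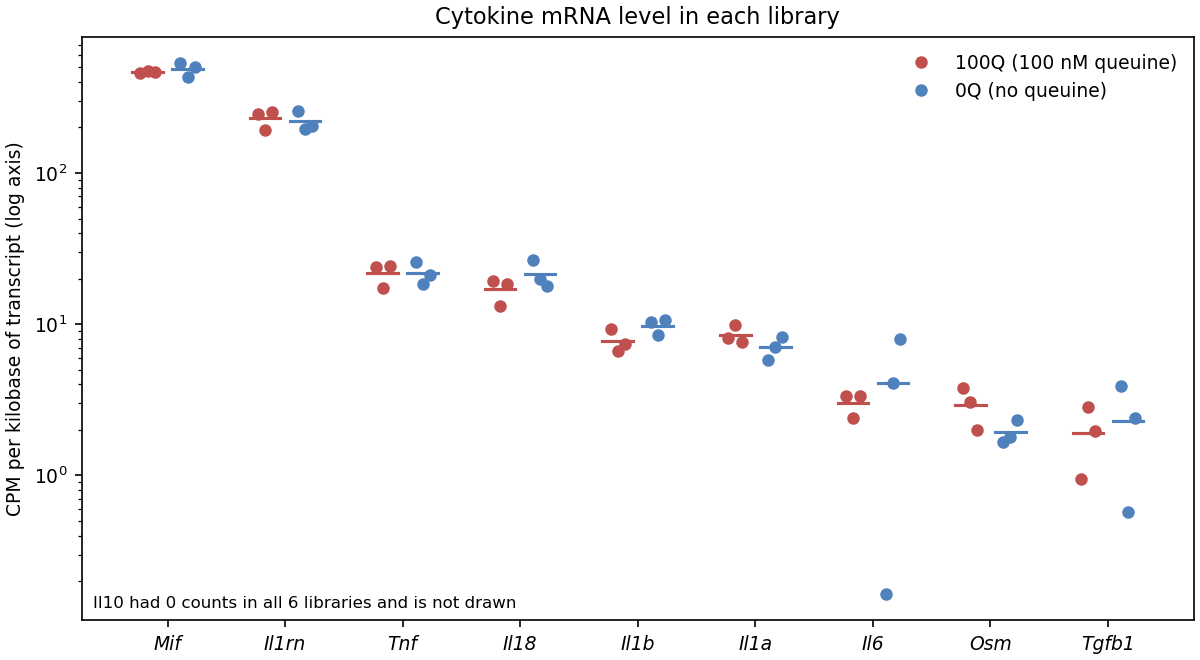
Level of each cytokine mRNA in CPM per kilobase of transcript on a log axis, with 1 point per library and a line at the group mean, 100Q in red and 0Q in blue. Mif and Il1rn stand above the other genes, the points of the groups overlap for every gene, and 1 0Q library lies far below the others for Il6.

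The comparison of 100Q with 0Q asks whether queuine supply altered these mRNAs. Of the 9 tested cytokines, 0 reached an adjusted p under 0.05, as for all genes tested (0% called). DESeq2 and limma-voom also called 0 genes. At an unadjusted p under 0.05 there were 0 of the 9, against 2.93% of all tested genes (1.77% higher and 1.16% lower in 100Q). The groups were free of overlap for 0 of the 9, against 8.27% of all tested genes (4.42% with 100Q above and 3.86% with 0Q above). Estimates were above 0 for 4 and below 0 for 5, with a median log2 fold change of -0.07, where all tested genes had a median of 0.000019. Without 0Q replicate 1 there were 6 above and 3 below, and the median was 0.15. The adjusted p was 0.999 for every member. In bulk libraries such as these, fewer cells of a type and less RNA per cell cannot be told apart.

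**Figure D3:**
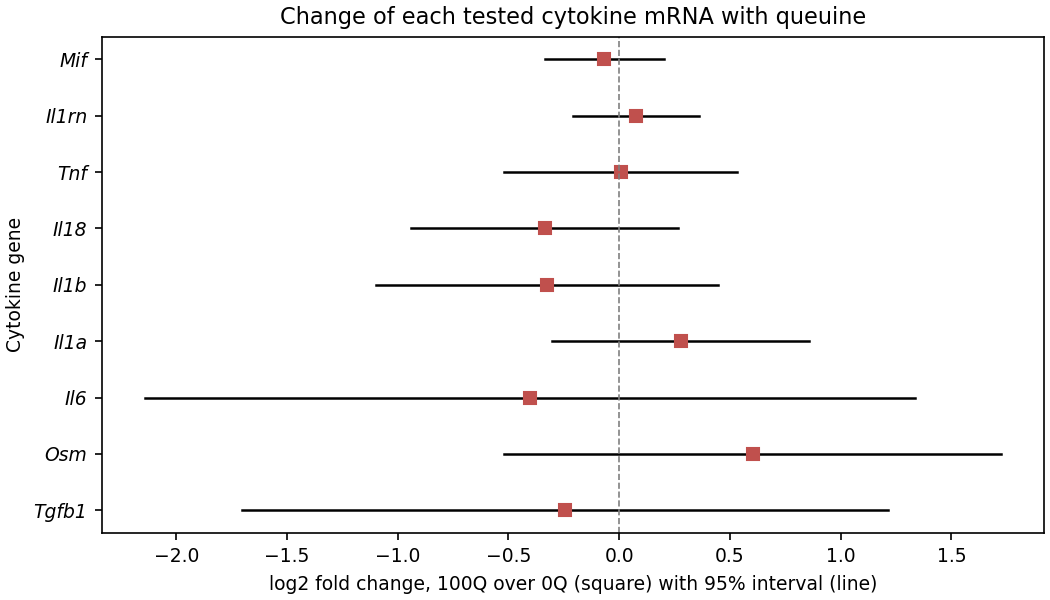
Log2 fold change of each tested cytokine mRNA, 100Q over 0Q (square), with its 95% interval (line), ordered from highest to lowest level. Every interval crosses 0, and the interval of Mif, from -0.33 to 0.20, is the narrowest while that of Il6, from -2.14 to 1.34, is the widest.

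The IL-1 family was represented by its agonists at intermediate levels and by its antagonist at a high level. Il1a (ENSMUSG00000027399, chromosome 2, 129140291 to 129152098, GRCm39) encodes IL-1 alpha, which is active without cleavage. It had 27.6, 33.9 and 26.2 CPM in 100Q replicates 1, 2 and 3 and 19.8, 24.1 and 28.3 CPM in 0Q replicates 1, 2 and 3. Only 0Q replicate 3 reached the range of the 100Q libraries. The means were 29.2 ± 4.13 CPM in the 100Q libraries, against 24.1 ± 4.25 CPM in the 0Q libraries (SD, n = 3 each), with an estimated log2 fold change of 0.28 (standard error 0.28; 95% interval -0.30 to 0.86). It was 0.16 without 0Q replicate 1 and 0.15 without 100Q replicate 2. Il1b (ENSMUSG00000027398, chromosome 2, 129206490 to 129213059), on the same strand next to it, encodes IL-1 beta. It had 12.5, 9.06 and 10.1 CPM in the 100Q libraries, against 14.0, 11.4 and 14.4 CPM in the 0Q libraries. Here 100Q replicate 1 lay within the range of the 0Q libraries and the other 100Q libraries below it. The log2 fold change was estimated at -0.33 (standard error 0.37; 95% interval -1.10 to 0.45), on 43 to 191 counts per library in 100Q and 52 to 81 in 0Q. It was -0.08 with all libraries thinned to the shallowest.

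Il1rn (ENSMUSG00000026981, chromosome 2, 24226865 to 24241506) encodes the IL-1 receptor antagonist. It had 607, 478 and 628 CPM in the 100Q libraries, against 632, 486 and 508 CPM in the 0Q libraries. In each group 1 library differed from the other 2 by more than the group means differed, so the groups overlapped. The means were 571 ± 81.1 CPM in the 100Q libraries, against 542 ± 78.6 CPM in the 0Q libraries (SD, n = 3 each), with a fold of 1.05 and a 95% interval from 0.867 to 1.28. Its pooled within-group SD, 0.21 on the log2(CPM + 1) scale, was larger than that of 86.1% of 216 genes of like abundance. The table gives 1 value per gene, so the secreted and the intracellular isoforms of the antagonist were not told apart.

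Ratios within a library do not depend on its depth. Per kilobase, the antagonist stood at 14.2, 11.6 and 16.8 times the summed agonists Il1a and Il1b in 100Q and at 15.9, 12.7 and 10.8 times in 0Q, so these ratios overlapped. The ratio of Il1a to Il1b was 0.871, 1.48 and 1.03 in 100Q and 0.563, 0.837 and 0.778 in 0Q. The ratio of Il1rn to Il1b was 26.5, 28.9 and 34.1 in 100Q and 24.8, 23.3 and 19.3 in 0Q. For both ratios every 100Q library lay above every 0Q library, although the nearest pairs lay close, and Il1b had 66 and 81 counts in the libraries nearest to each other for Il1a to Il1b. Over the 36 pairs of tested cytokines the groups did not overlap for 7 pairs (19.4%), against 8.78% of all pairs of tested genes with counts in every library. Of these 7 pairs, 4 held Il1b, so the pairs are not independent, and no test was made.

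**Figure D4:**
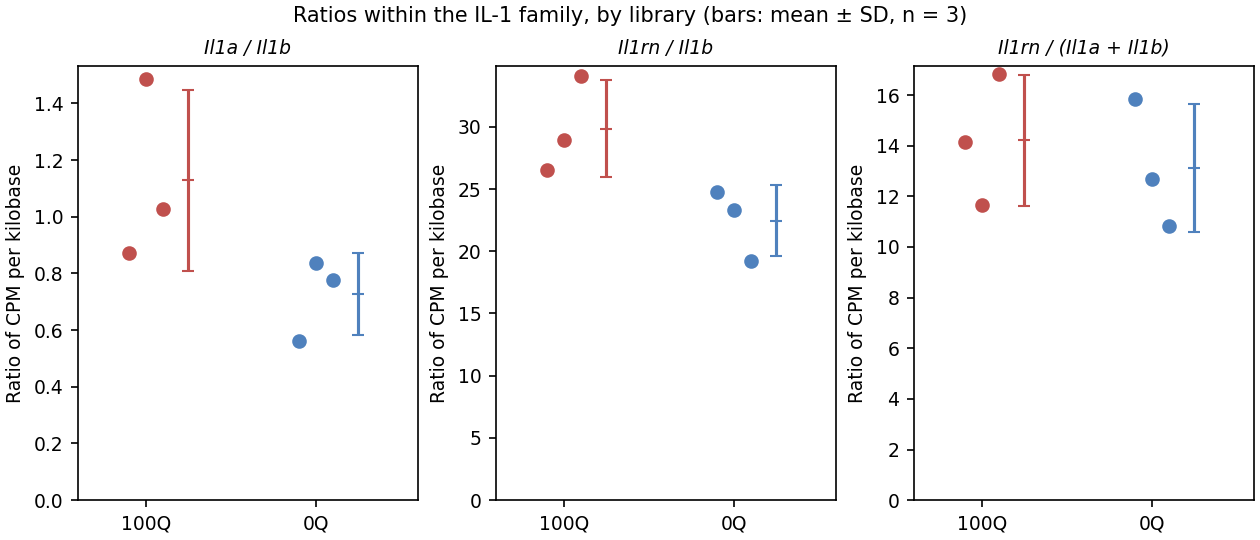
Ratios of CPM per kilobase within the IL-1 family, with 1 point per library and the mean ± SD beside them (n = 3 per group), 100Q left of 0Q. The 100Q points lie above the 0Q points for Il1a to Il1b (0.871 to 1.48 against 0.563 to 0.837) and for Il1rn to Il1b (26.5 to 34.1 against 19.3 to 24.8), and overlap for Il1rn to the sum of both agonists.

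The Il1a and Il1b locus is spanned on the opposite strand by the long noncoding RNA Gm14023 (chromosome 2, 129139285 to 129217678), which was singled out after its values were seen. It had 16, 11 and 36 counts in 100Q and 0 in each 0Q library, or 3.04, 2.32 and 1.90 CPM in 100Q. The 0 counts allow up to 0.567, 0.423 and 0.833 CPM in the 0Q libraries (3 counts each, counting error only). Its adjusted p was 0.999 by edgeR (unadjusted p = 0.00146), so it did not pass. Il1bos, an overlapping RNA on the strand of Gm14023, had 0 counts in each 100Q library and 0, 5 and 4 in 0Q. Summed, both RNAs had 3.04, 2.32 and 1.90 CPM in the 100Q libraries, against 0, 0.705 and 1.11 CPM in the 0Q libraries. Whether the counting used strand is not given in the sources used here, so reads of these RNAs and of Il1a or Il1b cannot be told apart where they overlap.

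Il18 (ENSMUSG00000039217, chromosome 9, 50466081 to 50493633) encodes IL-18, which induces interferon gamma in lymphocytes. It had 26.0, 17.9 and 25.1 CPM in the 100Q libraries, against 36.1, 27.1 and 24.2 CPM in the 0Q libraries. The highest values belonged to 0Q replicates 1 and 2, while 0Q replicate 3 lay among the 100Q libraries. The means were 23.0 ± 4.45 CPM in the 100Q libraries, against 29.1 ± 6.21 CPM in the 0Q libraries (SD, n = 3 each), with an estimated log2 fold change of -0.34 (standard error 0.29; 95% interval -0.94 to 0.27). Its unadjusted p, 0.256 by edgeR, was the smallest among the members. The log2 fold change was -0.15 without 0Q replicate 1 and -0.20 without 100Q replicate 2. The gene overlaps Tex12 and Bco2 on the other strand, which had at most 10 and 58.5 counts in any library.

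Tnf (ENSMUSG00000024401, chromosome 17, 35418357 to 35420983) encodes TNF, an early signal of inflammation. It had 39.2, 28.4 and 39.6 CPM in the 100Q libraries, against 42.1, 30.2 and 34.7 CPM in the 0Q libraries. The groups covered nearly the same range. Both means were 35.7 CPM (SD 6.32 in 100Q and 6.02 in 0Q, n = 3 each), and the log2 fold change of 0.0079 had a 95% interval from -0.52 to 0.53. Its sign changed with the size factors of DESeq2 (-0.0048) and without 0Q replicate 2 (-0.11), 0Q replicate 3 (-0.01), 100Q replicate 1 (-0.07) or 100Q replicate 3 (-0.08).

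Il6 and Osm encode cytokines that signal through the shared receptor chain gp130. Il6 (ENSMUSG00000025746, chromosome 5, 30218112 to 30224979) had 3.802, 2.74 and 3.805 CPM in the 100Q libraries, against 0.189, 4.65 and 9.17 CPM in the 0Q libraries. The 0Q libraries enclosed the 100Q libraries on both sides, and the lowest rested on 1 count in 0Q replicate 1 against 33 in each of the other 0Q libraries. Its pooled SD of 1.14 on the log2(CPM + 1) scale exceeded that of 95.02% of 1986 genes of like abundance. The log2 fold change was estimated at -0.40 (standard error 0.83; 95% interval -2.14 to 1.34). It was -0.97 without 0Q replicate 1 and 0.48 without 0Q replicate 3, so 1 library set its direction. Osm (ENSMUSG00000058755, chromosome 11, 4186420 to 4191026), which encodes oncostatin M, had 8.55, 6.95 and 4.54 CPM in the 100Q libraries, against 3.78, 4.09 and 5.28 CPM in the 0Q libraries. Replicates 1 and 2 of 100Q lay above all 0Q libraries and replicate 3, the deepest, within them. The means were 6.68 ± 2.02 CPM in the 100Q libraries, against 4.38 ± 0.792 CPM in the 0Q libraries (SD, n = 3 each), with an estimated log2 fold change of 0.60 (standard error 0.53; 95% interval -0.52 to 1.72). With 1 library left out the value ranged from 0.38 to 0.83.

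Il10 and Tgfb1, whose products restrain inflammation, had the lowest mean levels of the set. Low level was not confined to them. Per kilobase, Il6 and Osm averaged 3.56 and 2.44 CPM, against 2.11 CPM for Tgfb1, and their library ranges overlapped. Il1rn, whose product also opposes inflammation by blocking the IL-1 receptor, averaged 225 CPM per kilobase. Il10 (ENSMUSG00000016529, chromosome 1, 130947581 to 130952711) encodes IL-10, which restrains macrophages and dendritic cells. Its 0 counts allow up to 0.570, 0.632 and 0.159 CPM in 100Q replicates 1, 2 and 3 and up to 0.567, 0.423 and 0.833 CPM in the 0Q libraries, by the floor of 3 counts. Il10 was therefore not detectable at this depth, and the filter on low counts left it out of the test. Tgfb1 (ENSMUSG00000002603, chromosome 7, 25386390 to 25404506) encodes TGF-beta1, which is secreted in a latent form. It had 2.09, 6.32 and 4.33 CPM in the 100Q libraries, against 8.69, 1.27 and 5.28 CPM in the 0Q libraries, on 9 to 82 counts per library. The 0Q libraries again enclosed the 100Q libraries. The log2 fold change was estimated at -0.25 (standard error 0.69; 95% interval -1.71 to 1.21), and it was 0.43 without 0Q replicate 1 and 0.06 without 100Q replicate 1.

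Mif (ENSMUSG00000033307, chromosome 10, 75695187 to 75696122) encodes macrophage migration inhibitory factor. It had 272, 281 and 273 CPM in the 100Q libraries, against 314, 254 and 297 CPM in the 0Q libraries. The 100Q libraries lay closely together inside the range of the 0Q libraries. The means were 276 ± 5.01 CPM in the 100Q libraries, against 289 ± 31.1 CPM in the 0Q libraries (SD, n = 3 each), with a fold of 0.955 and a 95% interval from 0.794 to 1.15. The table lists 9 pseudogenes of Mif, 3 of which had counts, and reads may be divided between them and Mif. Mif-ps4 alone took 8.37% to 9.88% of the counts of Mif and its pseudogenes in 100Q and 9.22% to 12.7% in 0Q. The noncoding RNA Gm40697 overlaps Mif on the other strand. With all pseudogenes added to Mif the log2 fold change was -0.09, against -0.07 for Mif alone.

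Receptors and downstream genes of these cytokines, and a list of 26 other cytokines (9 tested), did not pass the test either. Of 104 genes in 9 lists, 79 were tested and 0 reached an adjusted p under 0.05, where 49 lay above 0, 30 lay below and the median was 0.07. At an unadjusted p under 0.05 there was 1 gene (1.27%), against 2.93% of all tested genes. The groups did not overlap for 8 of the 79, 3 with 100Q above and 5 with 0Q above, against 8.27% of all tested genes in either direction. Of the 5 with 0Q above, 2 were other cytokines, Il12a and Il16.

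**Figure D5:**
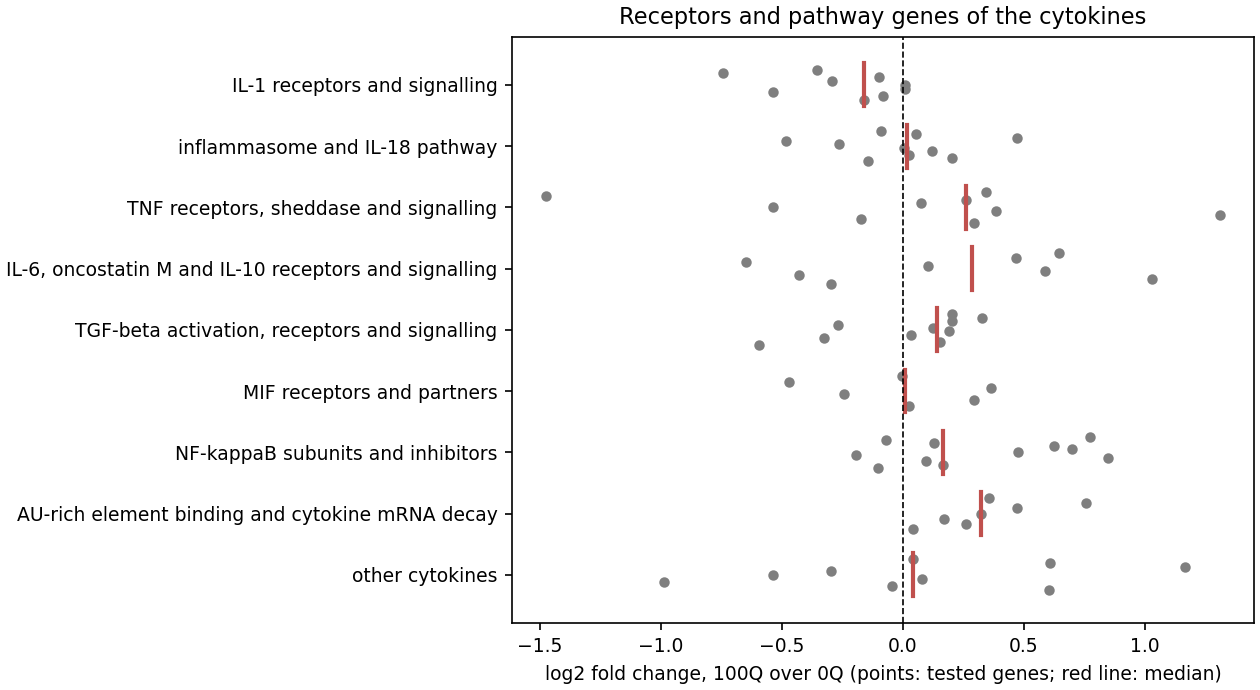
Log2 fold change, 100Q over 0Q, of each tested gene (grey points) in 9 lists of receptors, pathway genes and other cytokines. The list median is drawn as a red line. No gene passed the test; medians run from -0.16 for IL-1 receptors and signalling to 0.32 for binding of AU-rich elements.

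Among IL-1 receptors and signalling genes, 2 of 9 estimates lay above 0 and 7 lay below (median -0.16). The median was -0.27 without 0Q replicate 2 and -0.26 without 100Q replicate 1, and 0 of 9 lay above 0 without 0Q replicate 3 or without 100Q replicate 2. Il1r2, the decoy receptor that binds IL-1 without signalling, was the most abundant, with 145, 99.2 and 142 CPM in the 100Q libraries, against 158, 117 and 158 CPM in the 0Q libraries. The signalling receptor Il1r1 had only 7 counts over the 100Q libraries and 4 over the 0Q libraries and was not tested. So both the antagonist and the decoy receptor stood above the signalling receptor per kilobase in all 6 libraries. Irak1, a kinase of the pathway, had the smallest p, with an estimated log2 fold change of -0.54 (standard error 0.36; unadjusted p = 0.151 by edgeR). Of 10 inflammasome and IL-18 pathway genes, 6 lay above 0, and the median of 0.02 ranged from -0.05 to 0.09 with 1 library left out. Pycard, the adaptor that joins sensors to caspase-1, was the most abundant, with 456, 440.3 and 491 CPM in the 100Q libraries, against 552, 435 and 489 CPM in the 0Q libraries. Il18rap, a chain of the IL-18 receptor, had a log2 fold change of -0.48 (SE 0.41), which was -0.72 without 0Q replicate 2 and -0.29 without 100Q replicate 2.

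Of 9 genes of TNF receptors, shedding and signalling, 6 had estimates above 0, with a median of 0.26 that was 0.09 without 0Q replicate 1 or 100Q replicate 2 and 0.04 without 0Q replicate 2. Tnfrsf1b, the second TNF receptor, was the most abundant, with 84.6, 73.9 and 77.9 CPM in the 100Q libraries, against 48.7, 80.8 and 67.5 CPM in the 0Q libraries. Tradd, an adaptor of the first receptor, had 0.951, 1.90 and 2.59 CPM in the 100Q libraries, against 9.82, 2.96 and 2.78 CPM in the 0Q libraries. The groups did not overlap for Tradd, but its log2 fold change of -1.48 was -0.63 without 0Q replicate 1. Phaf1, which overlaps Tradd on the opposite strand, had 8.25, 6.95 and 6.34 CPM in the 100Q libraries, against 4.45, 1.83 and 4.72 CPM in the 0Q libraries, the reverse pattern. With the use of strand unknown, how reads were divided between them was not tested. Of 10 tested genes of TGF-beta activation and signalling, 7 lay above 0 with a median of 0.14, which was -0.02 without 0Q replicate 1. Thbs1, which can activate latent TGF-beta, was the most abundant, with 248, 256 and 242 CPM in the 100Q libraries, against 173, 271 and 204 CPM in the 0Q libraries. Tgfbr2, a receptor of TGF-beta, had a log2 fold change of 0.33 (SE 0.20). Of the 6 genes around MIF, 3 had estimates above 0. Ddt, a homologue of MIF, was the most abundant, with 66.3, 72.9 and 84.7 CPM in the 100Q libraries, against 77.5, 62.1 and 86.4 CPM in the 0Q libraries. Cops5, which binds MIF in the cell, had 110.4, 90.5 and 113 CPM in the 100Q libraries, against 127, 119.6 and 125 CPM in the 0Q libraries, without overlap, at a log2 fold change of -0.24 (SE 0.16) that was -0.15 without 100Q replicate 2. Cspp1, which overlaps Cops5 on the opposite strand, also had the reverse pattern, with 17.9, 20.01 and 13.8 CPM in the 100Q libraries, against 11.1, 12.6 and 7.78 CPM in the 0Q libraries.

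The IL-10 receptor chain Il10rb (chromosome 16, 91203012 to 91224600) had the smallest p of the 79 genes. It had 82.6, 43.7 and 66.0 CPM in the 100Q libraries, against 36.7, 42.2 and 13.6 CPM in the 0Q libraries, with a log2 fold change of 1.03 (95% interval 0.35 to 1.72, unadjusted p = 0.00544 and adjusted p = 0.999 by edgeR). The protein-coding gene Gm21970 (chromosome 16, 91180749 to 91222722) overlaps it on the same strand and had the opposite pattern, with 14.1, 33.2 and 19.9 CPM in the 100Q libraries, against 44.1, 45.0 and 61.8 CPM in the 0Q libraries. The sum of both was 96.7, 76.9 and 85.9 CPM in the 100Q libraries, against 80.9, 87.2 and 75.4 CPM in the 0Q libraries, and these values overlapped. With the counts of both added, the log2 fold change was 0.09 (95% interval -0.28 to 0.46, unadjusted p = 0.611). In its list, which also holds receptors and signalling genes of IL-6 and oncostatin M, 5 of 8 tested genes had estimates above 0, with a median of 0.29 that was 0.11 without 0Q replicate 1 or 100Q replicate 2. The oncostatin M receptor Osmr had 1 count in all and the related Lifr 25 counts in 100Q and 20 in 0Q, so neither was tested.

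All 7 tested genes that bind AU-rich elements or govern decay of cytokine mRNAs had estimates above 0, where 50% of all tested genes did, with a median of 0.32. Without 0Q replicate 1 there were 5 of 7 with a median of 0.18, without 100Q replicate 1 there were 5 of 7 with a median of 0.35, and without 100Q replicate 2 there were 6 of 7 with a median of 0.16. Zfp36l1, which promotes decay, had 15.2, 29.1 and 15.6 CPM in the 100Q libraries, against 11.7, 15.4 and 7.78 CPM in the 0Q libraries. Zfp36l2, its relative, was the most abundant, with 65.0, 117 and 66.5 CPM in the 100Q libraries, against 48.0, 70.8 and 75.0 CPM in the 0Q libraries. For both genes 100Q replicate 2 was the highest library and the groups overlapped. Of 11 NF-kappaB subunits and inhibitors, 8 had estimates above 0, with a median of 0.17 that was 0.42 without 0Q replicate 2. Nfkbia, the inhibitor that NF-kappaB itself induces, was the most abundant and had the smallest p, with 120, 172 and 168 CPM in the 100Q libraries, against 211, 154 and 161 CPM in the 0Q libraries. Its log2 fold change was estimated at -0.20 (standard error 0.17; unadjusted p = 0.268 by edgeR), and it was -0.04 without 0Q replicate 1 and -0.05 without 100Q replicate 1.

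Other cytokines mostly had few or 0 counts. Of 26 listed, 9 were tested, with 5 estimates above 0 and 4 below. The other 17 were not tested, and 9 of these 17 had 0 counts in all 6 libraries, among them Ifng, Ifnb1 and Il23a. Il12b, a subunit of IL-12, had 2, 0 and 7 counts in 100Q replicates 1, 2 and 3, the 7 in the deepest library, and 0 in each 0Q library. In CPM the 100Q values were 0.380, 0 and 0.370. By the floor of 3 counts, 0 allows up to 0.567, 0.423 and 0.833 CPM in the 0Q libraries, so these values do not separate the groups. Ebi3, a subunit of IL-27, was the most abundant, with 29.4, 26.4 and 29.2 CPM in the 100Q libraries, against 30.4, 21.4 and 36.3 CPM in the 0Q libraries. Il16 had 18.8, 20.2 and 30.6 CPM in the 100Q libraries, against 35.5, 34.8 and 31.7 CPM in the 0Q libraries, without overlap, at an estimated log2 fold change of -0.54 (standard error 0.28; unadjusted p = 0.0674 by edgeR). The nearest libraries of the groups, 100Q replicate 3 and 0Q replicate 3, lay close together. Stard5, which overlaps Il16 on the opposite strand, had 16.0, 18.3 and 21.3 CPM in the 100Q libraries, against 19.1, 24.0 and 21.4 CPM in the 0Q libraries. How reads were divided between Il16 and Stard5 was not tested.

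By pattern over the 6 libraries, the genes most like Il1b among 1328 at 100 CPM or more were Alg5, Impdh2 and Adh5. Their log2 levels, centred on each gene's mean, differed from those of Il1b by a root mean square of 0.0573, 0.0779 and 0.0835. For Il1rn they were Gm2a, Lipa and Ccr1, at 0.0444, 0.0446 and 0.0477. With 6 libraries such matches among many genes are a description only.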

How the data were processed

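The authors deposited expected counts per Ensembl gene, not normalized, with 1 column per library. Per the submitters' processing notes, FastQC, STAR and RSEM were used on mm39 (GRCm39). Their versions, the strandedness and the annotation release were not given in the sources used here. Symbols, positions and transcripts came from GENCODE mouse release M39, and 502 of 57132 identifiers had no match and kept their identifier. RSEM divides ambiguous reads between genes, so values of near-identical or overlapping genes are uncertain.

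Expected counts were rounded and tested with edgeR 4.0.16 in R 4.3.3 (filterByExpr, TMM, robust glmQLFit, glmQLFTest, Benjamini-Hochberg over 10554 genes, threshold 0.05). Standard errors are the absolute log2 fold change over the root of F, and intervals are 95%. Only the labels define the groups. Alternatives were DESeq2 1.42.0, limma-voom 3.58.1, other scalings, no filter, thinning, a fit with replicate numbers as blocks, and fits that omit 1 library in turn. The edgeR step was tested on simulated data with large changes placed in abundant genes only. That test does not show how well small changes, or changes in genes with low counts, would be found. No pair of libraries within a group agreed within sampling noise (chi-square per gene 9.22 to 16.5). Each was counted as a separate sample by its label. This spread cannot show that the libraries came from separate animals. Precision reflects both depth and the spread between libraries.

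The members and lists were chosen with earlier results of these data known. The text names all members, and of each list the most abundant gene per kilobase and, outside the cell type lists, the one with the smallest p. Further genes were named after their values were seen: Gm14023, Il1bos, Gm21970, the Mif pseudogenes, Gm40697, Tex12, Bco2, Phaf1, Cspp1, Itgax, Flt3 and Zbtb46. So were Il12a, Il12b, Stard5, Cd3e and the genes with few or 0 counts. Of the erythroid list the most abundant was Hbb-bs and of the lymphocyte list Nkg7, and neither passed the test.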

Additional observations from a re-analysis of the deposited data

How the results depend on the processing

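The addition of overlapping genes or pseudogenes and the lists with a library left out were chosen after the data were seen. The count of cytokines past the threshold was 0 in every setting. The count of all genes was 0 except without 0Q replicate 1 (2) and without 0Q replicate 2 (1), a range of 0 to 2 over omitted libraries. The cytokine median of -0.07 was 0.11 with limma-voom and ranged from -0.16 to 0.15 over omitted libraries, highest without 0Q replicate 1. The cause was not tested. Signs changed in 15 values of single cytokines, with 0 called. Tgfb1 was 0.30 and Il6 0.75 with limma-voom. Tnf was -0.0048 with the size factors of DESeq2, -0.0035 with its test and -0.0039 with thinned libraries. Over omitted libraries Tgfb1 ranged from -0.74 to 0.43, Tnf from -0.11 to 0.15, Il6 from -0.97 to 0.48, Il1rn from -0.0038 to 0.20 and Mif from -0.16 to 0.0015. Il1a (0.15 to 0.40), Il1b (-0.47 to -0.24), Il18 (-0.45 to -0.15) and Osm (0.38 to 0.83) kept their sign over omitted libraries and in the other settings, where Il1b was -0.08 with thinned libraries. In the replicate block fit 0 genes and 0 cytokines passed, and Il6 was 0.11. Correlations of deviations from group means were 0.0248, 0.0976 and -0.0216 for equal replicate numbers, against -0.117 to 0.12 for unequal ones, so the numbers were not taken to pair the samples. Il10rb was 0.09 with Gm21970 added, and alone it ranged from 0.69 to 1.31 over omitted libraries. The intervals of Il1b, Il6, Osm and Tgfb1 reach beyond 2-fold. What sets their width was not tested.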
